A study of Mus musculus with 6 samples.

Results

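The genes described here are 10 glucose transporter and glycolysis genes of the mouse, Slc2a1, Slc2a3, Hk1, Gpi1, Pfkp, Aldoa, Gapdh, Pgk1, Ldha and Ldhb. They were chosen by gene symbol, and all 10 were found among the 23235 rows of the transcript table. The samples were growing oocytes from C57BL/6 females (C57BL/6J in the methods of the study), 3 samples of Pabpn1-null oocytes (Pabpn1fl/fl;Gdf9-Cre) and 3 samples of wild-type (WT) oocytes, with 10 oocytes lysed together in each sample. The Gdf9 promoter drives Cre recombinase in oocytes from the primordial follicle stage, so the surrounding granulosa cells keep Pabpn1. The WT controls were littermates of the knockout mice, but whether they carried floxed alleles, the age of the sequenced mice, and whether each sample came from separate mice are not given in the sources used here. The p-values therefore measure only the spread between these samples.

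Glucose enters a cell through facilitative transporters and is phosphorylated by hexokinases, and glycolysis then splits it into pyruvate, which lactate dehydrogenase interconverts with lactate. Mouse oocytes are known for using little glucose by themselves. They take up pyruvate made by the granulosa and cumulus cells around them, and they hold large amounts of the lactate dehydrogenase subunit encoded by Ldhb. PABPN1 binds the poly(A) tail of nuclear mRNA and stimulates its synthesis. Because the cDNA was primed with oligo-dT, a change in tail length and a change in transcript level cannot be told apart in these data.

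Levels are given as FPKM, fragments per kilobase of transcript scaled to the mapped reads of the sample, which allows levels of different genes to be compared per length. Pabpn1 itself was at 0.595, 0.878 and 1.37 FPKM in the 3 Pabpn1-null samples and at 21.9, 33.4 and 21.8 FPKM in the 3 WT samples, so every library matched its label. Of 12523 transcripts with more than 1 FPKM in at least 1 sample, limma, a linear model fitted to log2(FPKM + 1), called 3491 (27.9%) higher and 2535 (20.2%) lower in Pabpn1-null oocytes, with a threshold of 0.05 on the adjusted p. The median log2 change over these transcripts was 0.09. The study states that FPKM was further normalized to an RNA spike-in, and its table of changed transcripts is linked to the deposited values by a factor for each sample (0.833 for each Pabpn1-null sample, and 1.00, 1.42 and 1.31 for the WT samples). With these factors applied, the median log2 change over all transcripts was -0.36 and the higher calls made up 20.9% of all calls, against 57.9% on the deposited scale and 70.9% with every sample scaled to the same total FPKM. The study itself, at a threshold on fold change, reported more decreased than increased transcripts. That is the balance found with the factors and the reverse of that on the deposited scale. The deposited values behaved as FPKM scaled to the reads of each library (see the processing below). On that scale, rose and fell therefore mean relative to the other transcripts of a library, not per oocyte. Which scale follows RNA per oocyte was not tested. Each change below is given on the deposited scale, with its position relative to the median beside it where the scale matters. A factor per sample moves a gene and the median nearly alike. That position therefore had to be similar with and without the factors, and its likeness does not test the change.

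Of the 10 genes, 8 passed the filter on low values, 4 rose (Slc2a1, Gpi1, Aldoa and Gapdh), 1 fell (Ldhb) and 3 did not pass the test on the deposited scale, whereas 0 rose and 2 fell (Pgk1 and Ldhb) with the factors of the study table. At an unadjusted p under 0.05 in limma, 2 were higher (Gpi1 and Gapdh) and 2 lower with the factors. The background was 27.9% higher and 20.2% lower calls on the deposited scale, and 9.4% higher and 35.5% lower calls with the factors. Among the 8 genes tested, the 3 Pabpn1-null samples did not overlap the 3 WT samples for 4 that were higher and 2 that were lower, beside 33.3% and 24.7% of all transcripts tested. The median log2 change of the 8 genes was 0.42. Slc2a3 and Hk1 were below 1 FPKM in all 6 samples and were not tested.

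**Figure D1:**
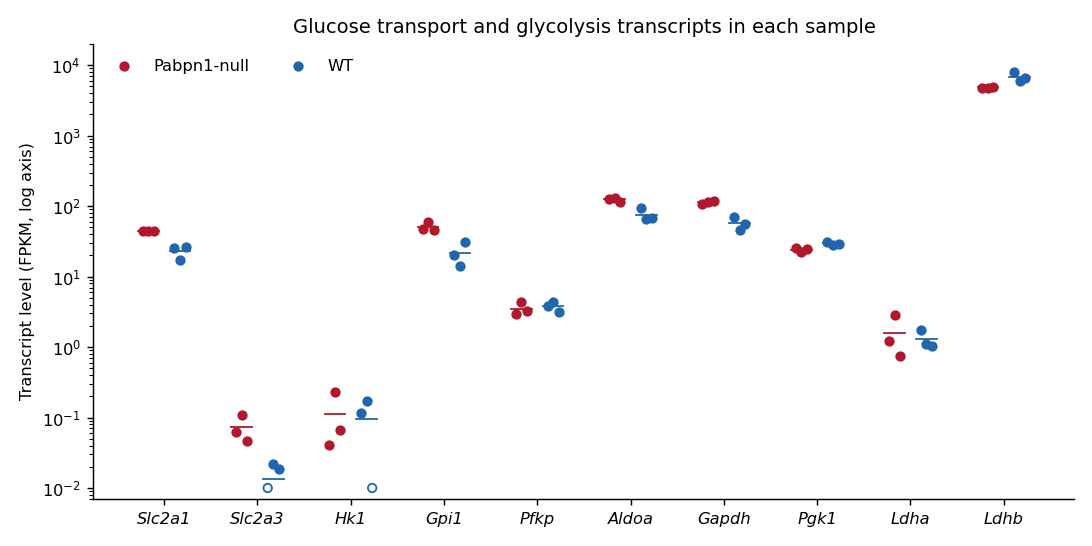
Transcript level (FPKM, log axis) of the 10 genes in each sample, with Pabpn1-null samples in red left of WT samples in blue, short lines at the group means, and open circles at the bottom for values listed at 0. The levels ran from Ldhb at 4787 to 7940.5 FPKM down to Slc2a3 at 0.109 FPKM or less.

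Polyadenylation takes place downstream of a hexamer, most often AATAAA, and the sites of 4 of the genes are shown because the protein removed in these oocytes acts on the tail that is added there. Each line is the end of the mRNA from the mm9 genome, 5′ to 3′, with the hexamer in capitals.
Aldoa, chr7:133938750-133938779, minus strand: cccactgccAATAAAcaactatttaagggg
Gapdh, chr6:125111872-125111901, minus strand: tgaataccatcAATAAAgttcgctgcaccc
Pgk1, chrX:103399008-103399037, plus strand: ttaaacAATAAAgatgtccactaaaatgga
Ldhb, chr6:142438769-142438798, minus strand: tgatcaAATAAAgttagcaattgcagcata
The hexamer AATAAA stood within the last 40 bases of the annotated transcript (GENCODE vM1) in 6 of the 10 genes, beside 58.5% of 11638 coding genes tested. Those 6 were Slc2a3, Aldoa, Gapdh, Pgk1, Ldha and Ldhb, so the hexamer was present in genes that rose, that fell and that did not pass the test. Slc2a3 and Hk1 were counted among the 10 but were not tested, unlike the coding genes beside them. Slc2a1 and Gpi1, which rose, had neither AATAAA nor ATTAAA in that window. The 10 genes had a median transcript length of 1931 nt and a median 3′UTR of 452.5 nt, beside 2667.5 nt and 778 nt over the coding genes tested. Their median GC content was 54.1%, beside 50.1%.

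Slc2a1 (chr4:118781316-118809935, plus strand) encodes GLUT1, the widespread glucose transporter of the plasma membrane. Its level was 44.2, 44.4 and 43.8 FPKM in Pabpn1-null oocytes and 25.3, 17.3 and 25.9 FPKM in WT oocytes. The lowest Pabpn1-null sample stood above the highest WT sample, and the Pabpn1-null samples lay within 1 FPKM of each other. The mean was 44.1 ± 0.296 FPKM in Pabpn1-null oocytes and 22.8 ± 4.84 FPKM in WT oocytes (SD, n = 3 each), 1.93-fold higher, with a log2 change of 0.94 ± 0.18 (standard error, SE; limma adjusted p = 0.00202). With the factors of the study table the log2 change was 0.40 and was not called (adjusted p = 0.123). It stood 0.76 above the median of all transcripts, against 0.85 above it on the deposited scale.

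Slc2a3 (chr6:122677827-122751658, minus strand) encodes GLUT3, a transporter with high affinity for glucose. Its level was 0.0629, 0.109 and 0.0464 FPKM in Pabpn1-null oocytes, against 0, 0.0222 and 0.0184 FPKM in WT oocytes. The steps between low FPKM values returned the fragments behind them, 3, 5 and 2 in Pabpn1-null oocytes and 0, 1 and 1 in WT oocytes. The groups did not overlap, by 1 fragment, and all 6 values were close to 0. Fitted without the filter on low values, Slc2a3 was not called (limma adjusted p = 0.0921, unadjusted p = 0.0236), and its unadjusted p was 0.0648 in limma once rows with no spread were left out as well. Slc2a1 made up 99.8% of the summed Slc2a1 and Slc2a3 level in Pabpn1-null oocytes and 99.9% in WT oocytes. Of 13 other glucose and hexose transporter genes, 3 passed the filter (Slc2a10, Slc2a12 and Slc5a2) and 0 rose or fell in limma, also at an unadjusted p under 0.05, with log2 changes between -0.01 and 0.24.

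Hk1 (chr10:61731603-61842656, minus strand) encodes a hexokinase, the enzyme that phosphorylates glucose after entry. It was at 0.0404, 0.232 and 0.067 FPKM in Pabpn1-null oocytes and at 0.117, 0.171 and 0 FPKM in WT oocytes, so the groups overlapped. The hexokinase genes Hk2 and Hk3 and the related Hkdc1 were also below 1 FPKM in all samples. Adpgk, which encodes an enzyme that phosphorylates glucose with ADP and was not among the 10 genes, was measured well above these levels. It was at 107, 100.1 and 96.9 FPKM in Pabpn1-null oocytes and at 46.3, 41.9 and 37.4 FPKM in WT oocytes. Adpgk was 2.42-fold higher in Pabpn1-null oocytes (log2 change 1.26 ± 0.14 SE, limma adjusted p = 0.00015), and the groups did not overlap.

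Gpi1 (chr7:34987141-35015308, minus strand) encodes glucose phosphate isomerase, which converts glucose phosphate to fructose phosphate. Its level was 48.1, 58.7 and 46.4 FPKM in Pabpn1-null oocytes and 20.2, 13.9 and 31.4 FPKM in WT oocytes. No WT sample reached the lowest Pabpn1-null sample, but the WT samples varied more among themselves, relative to their mean, than for any other of the 4 genes that rose. The mean was 2.34-fold higher in Pabpn1-null oocytes, with a log2 change of 1.25 ± 0.25 (SE, limma adjusted p = 0.00296), the highest of the 8 genes tested. Leaving out 1 sample at a time gave log2 changes between 0.98 (without WT replicate 2) and 1.54 (without WT replicate 3), and Gpi1 was called each time. With the factors of the study table the log2 change was 0.71 and was not called (adjusted p = 0.0515), and it stood 1.07 above the median of all transcripts, against 1.16 above it on the deposited scale.

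Phosphofructokinase, the step at which glycolysis is committed, has 3 subunit genes. Pfkp (chr13:6579014-6648023, minus strand), which encodes the platelet-type subunit, was at 2.96, 4.36 and 3.22 FPKM in Pabpn1-null oocytes and at 3.89, 4.31 and 3.16 FPKM in WT oocytes. The groups overlapped over nearly their whole range, and the log2 change was -0.09 ± 0.20 (SE, limma adjusted p = 0.735). The fragments behind these values were 142, 201 and 140 in Pabpn1-null oocytes and 129, 196 and 173 in WT oocytes. Pfkp made up 34.3%, 28.6% and 42.6% of the summed level of the 3 subunit genes in Pabpn1-null oocytes, against 48.5%, 50.4% and 47.5% in WT oocytes. These shares did not overlap, and they do not change with the scaling of a sample. The exact two-sided permutation p was 0.1, the smallest that 3 against 3 samples allow, and 0.28 after adjustment over 7 such shares. The other subunit genes were Pfkl, at a mean of 3.56 FPKM in Pabpn1-null oocytes and 1.55 FPKM in WT oocytes (limma adjusted p = 0.0659), and Pfkm, at 3.42 and 2.40 FPKM (adjusted p = 0.241). In the Pabpn1-null samples Pfkl was at 2.69, 6.07 and 1.91 FPKM and Pfkm at 2.99, 4.83 and 2.43 FPKM. Both means thus leaned on Pabpn1-null replicate 2, which also had the lowest Pfkp share.

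Aldoa (chr7:133938748-133944265, minus strand) encodes aldolase A, which splits fructose bisphosphate into triose phosphates. It was at 128, 133 and 116 FPKM in Pabpn1-null oocytes and at 93.0, 66.2 and 67.8 FPKM in WT oocytes. The groups did not overlap, and WT replicate 1 was the closest to the Pabpn1-null samples. Aldoa was 1.66-fold higher in Pabpn1-null oocytes, with a log2 change of 0.74 ± 0.16 (SE, limma adjusted p = 0.00409). With the factors of the study table the log2 change was 0.18 and was not called (adjusted p = 0.39), and it stood 0.54 above the median of all transcripts, against 0.64 above it on the deposited scale. Aldoa made up 99.2% of the summed aldolase level in Pabpn1-null oocytes and 98.7% in WT oocytes (exact permutation p = 0.1). Tpi1, the triose phosphate isomerase of the next step, was 1.57-fold higher in Pabpn1-null oocytes (102.7 ± 1.64 and 65.4 ± 9.18 FPKM, limma adjusted p = 0.00435), but not with the factors (log2 change 0.10, adjusted p = 0.684).

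Gapdh (chr6:125111871-125116485, minus strand) encodes glyceraldehyde phosphate dehydrogenase, the step that yields NADH. Its level was 108, 113 and 118 FPKM in Pabpn1-null oocytes and 71.0, 45.6 and 54.9 FPKM in WT oocytes. The fragments behind these values numbered 1410, 1411 and 1391 in Pabpn1-null oocytes and 640, 563 and 818 in WT oocytes. Gapdh was 1.97-fold higher in Pabpn1-null oocytes, with a log2 change of 0.99 ± 0.17 (SE, limma adjusted p = 0.00122), and the groups did not overlap. With the factors the log2 change was 0.44 (adjusted p = 0.0521), which stood 0.80 above the median of all transcripts, against 0.90 above it on the deposited scale.

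Pgk1 (chrX:103382439-103399038, plus strand) encodes phosphoglycerate kinase, the first step that yields ATP. It was at 25.1, 22.7 and 24.6 FPKM in Pabpn1-null oocytes and at 31.2, 28.5 and 29.3 FPKM in WT oocytes. The highest Pabpn1-null sample stood under the lowest WT sample, in contrast to Gapdh, the step before it. The log2 change was -0.29 ± 0.14 (SE, limma adjusted p = 0.121), so it was not called on the deposited scale. It was called lower under median-of-ratios scaling (-0.39, adjusted p = 0.0497), quantile normalization (-0.44, adjusted p = 0.0264) and the factors of the study table (-0.83, adjusted p = 0.00566). Pgk2, the testis form, was listed at 0 in all 6 samples.

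**Figure D2:**
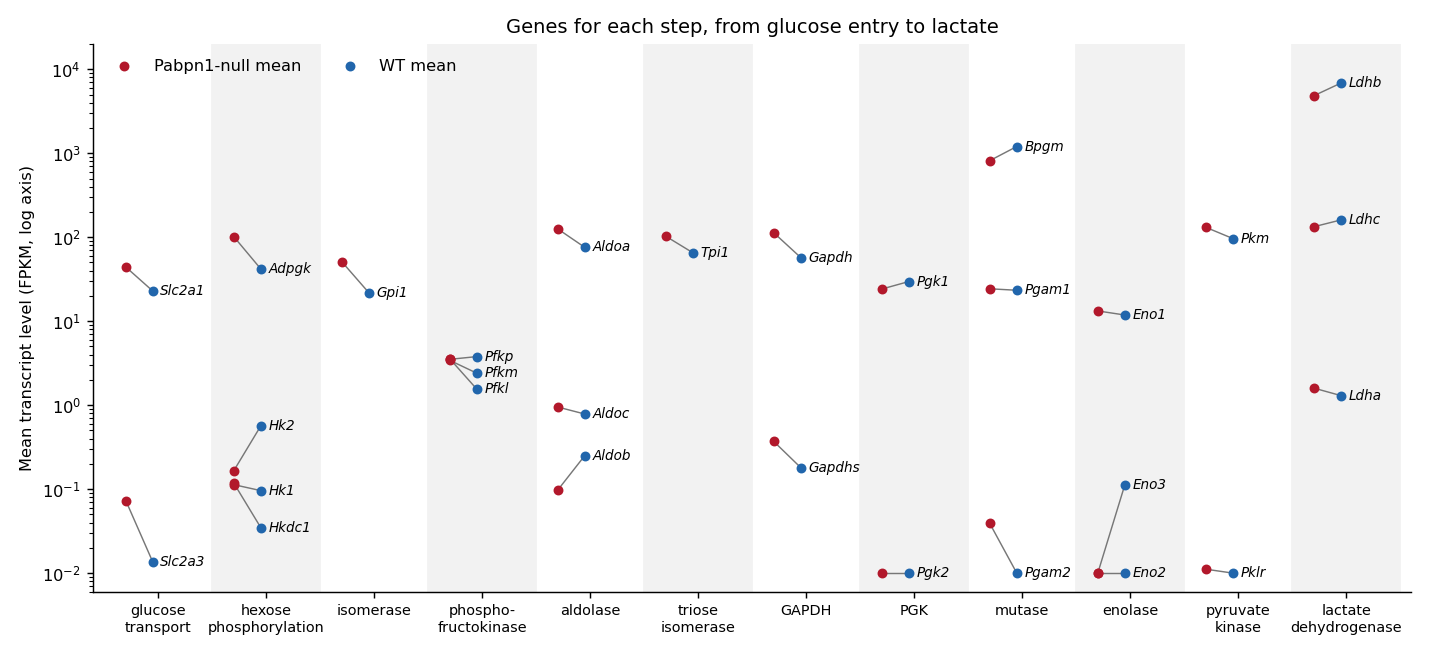
Mean transcript level (FPKM, log axis) of the genes for each step from glucose entry to lactate, with the Pabpn1-null mean in red joined to the WT mean in blue, and means of 0.01 FPKM or less drawn at 0.01 (Hk3, listed at 0, is left out). Adpgk stood at 101.4 and 41.9 FPKM where Hk1, Hk2 and Hkdc1 did not exceed 1 FPKM, and Ldhb stood at 4835 and 6834 FPKM where Ldha did not exceed 3 FPKM.

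The later steps are given to complete the pathway. Pgam1, the phosphoglycerate mutase, averaged 24.3 FPKM in Pabpn1-null oocytes and 23.3 FPKM in WT oocytes, and Eno1, the enolase, 13.2 and 11.8 FPKM, neither of them called (adjusted p = 0.798 and 0.539 from limma). Pkm, the pyruvate kinase, was at 102, 183 and 108 FPKM in Pabpn1-null oocytes and at 105, 82.0 and 102 FPKM in WT oocytes, and was not called (adjusted p = 0.156). Only Pabpn1-null replicate 2 stood above the WT samples by more than 5 FPKM. Bpgm, which encodes bisphosphoglycerate mutase of a side branch, was at 747, 862 and 841 FPKM in Pabpn1-null oocytes and at 1191, 1077 and 1339.9 FPKM in WT oocytes. Bpgm fell to 67.9% of the WT mean (log2 change -0.56, limma adjusted p = 0.005), but was not called under quantile normalization (-0.23, adjusted p = 0.0754). Of the 22 other glycolytic enzyme genes, 10 were tested, 2 rose (Adpgk and Tpi1) and 1 fell (Bpgm), with a median log2 change of 0.26, against 1 that rose and 2 that fell with the factors of the study table. The background was 27.9% higher and 20.2% lower on the deposited scale, and 9.4% higher and 35.5% lower with the factors. With only 10 genes tested, these counts do not set the list apart from the background.

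Lactate dehydrogenase is a tetramer of subunits encoded by Ldha (muscle type) and Ldhb (heart type), with Ldhc as a germ cell form. Ldha (chr7:54096845-54110997, plus strand) was at 1.22, 2.83 and 0.736 FPKM in Pabpn1-null oocytes and at 1.77, 1.11 and 1.02 FPKM in WT oocytes. Pabpn1-null replicates 2 and 3 were the highest and the lowest of all 6 samples, so the groups overlapped (log2 change 0.11 ± 0.29 SE, limma adjusted p = 0.778). The values rested on 22, 49 and 12 fragments in Pabpn1-null oocytes and on 22, 19 and 21 in WT oocytes. The 49 fragments of Pabpn1-null replicate 2 had a 95% Poisson interval of 36.3 to 64.8, which covers counting error only, because amplified fragments are not independent molecules. Without that sample the log2 change was -0.21.

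Ldhb (chr6:142438769-142456477, minus strand) was one of the most abundant transcripts of these oocytes. Its level was 4787, 4823 and 4896 FPKM in Pabpn1-null oocytes and 7940.5, 5946 and 6616 FPKM in WT oocytes. It ranked 4, 4 and 4 among the 23235 rows in the Pabpn1-null samples and 2, 4 and 3 in the WT samples. All Pabpn1-null samples were below all WT samples, and the WT samples spread more widely. Ldhb fell to 70.8% of the WT mean, with a log2 change of -0.49 ± 0.12 (SE, limma adjusted p = 0.0095). It was lower under all scalings tried, by 1.05 on the log2 scale with the factors of the study table (adjusted p = 8.76e-05), but it was not called under quantile normalization (-0.10, adjusted p = 0.188), which sets the highest ranks of all samples to like values, nor without the filter on low values (adjusted p = 0.289). Ldhb made up 97.3 ± 0.364% of the summed Ldha, Ldhb and Ldhc level in Pabpn1-null oocytes and 97.7 ± 0.303% in WT oocytes (exact permutation p = 0.2), and Ldhc averaged 133 and 160.4 FPKM (limma adjusted p = 0.156).

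**Figure D3:**
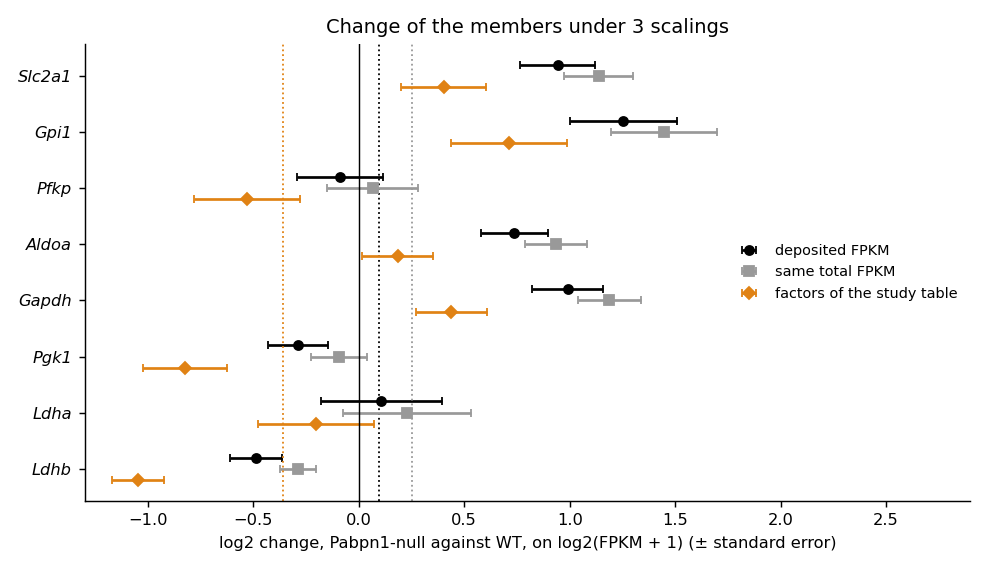
Log2 change of the 8 genes tested, Pabpn1-null against WT, on the deposited scale (black circles), with the same total FPKM in every sample (grey squares) and with the factors of the study table (orange diamonds), with bars for the standard error and dotted lines at the median of all transcripts on each scale. Slc2a1, Gpi1, Aldoa and Gapdh lay right of the median and Pgk1 and Ldhb left of it on all 3 scales, where the medians were 0.09, 0.25 and -0.36. A change of scale moves a gene and the median nearly alike.

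The order of the levels was compared next, although the levels of Gapdh, Ldha, Aldoa and Pgk1 are uncertain because of their pseudogenes. In Pabpn1-null oocytes the order of the mean levels was Ldhb, Aldoa, Gapdh, Gpi1, Slc2a1, Pgk1, Pfkp, Ldha, Hk1 and Slc2a3. In WT oocytes the order after Ldhb, Aldoa and Gapdh was Pgk1, Slc2a1 and Gpi1, and the last 4 genes stood as in Pabpn1-null oocytes. The ranges of Aldoa and Gapdh overlapped in both genotypes, as did those of Slc2a1 and Gpi1 in WT oocytes. Within samples, Aldoa was above Gapdh in every sample except Pabpn1-null replicate 3. Slc2a1 was above Gpi1 in every WT sample except replicate 3. Pgk1 was below Slc2a1, Gpi1, Aldoa and Gapdh in all 3 Pabpn1-null samples, whereas in the WT samples it was above Slc2a1 in 3 of 3 and above Gpi1 in 2 of 3.

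A ratio of 2 genes within a sample does not depend on how that sample was scaled, so the genes were set against Pgk1, a reference chosen after the data were seen. The Slc2a1 to Pgk1 ratio was 1.76, 1.96 and 1.78 in Pabpn1-null oocytes and 0.812, 0.606 and 0.884 in WT oocytes. The ratio was 2.39-fold higher in Pabpn1-null oocytes for Slc2a1, 2.89-fold for Gpi1, 2.05-fold for Aldoa and 2.44-fold for Gapdh. Since these 4 genes were higher and Pgk1 was lower without overlap, their ratios had to separate. A test of these ratios therefore says nothing more, and its p is not used. The Ldhb to Pgk1 ratio was 191, 213 and 199 in Pabpn1-null oocytes and 255, 209 and 226 in WT oocytes, which overlapped, as did the ratios of Pfkp and Ldha.

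**Figure D4:**
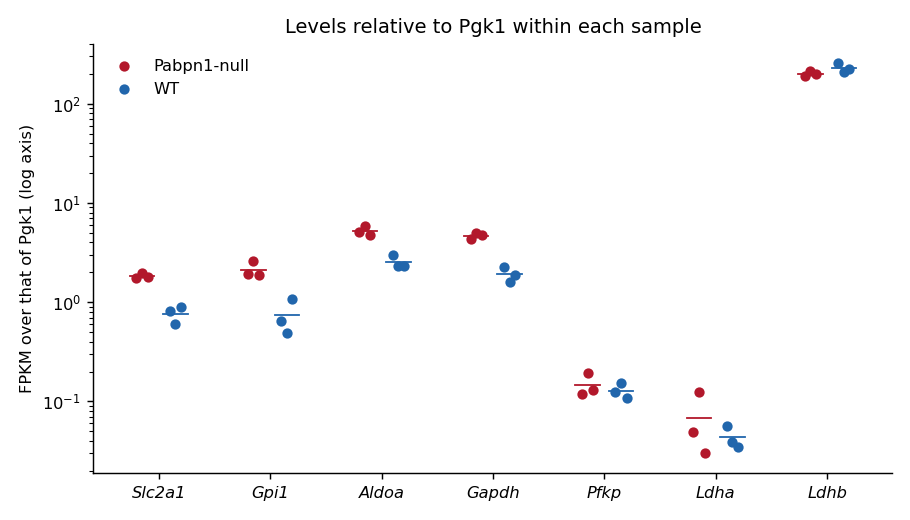
FPKM of 7 genes over the FPKM of Pgk1 in the same sample (log axis), with Pabpn1-null samples in red left of WT samples in blue and short lines at the means. The ratios of Slc2a1 had means of 1.83 and 0.768 and, as for Gpi1, Aldoa and Gapdh, did not overlap, which the choice of Pgk1 fixed, whereas those of Pfkp, Ldha and Ldhb overlapped.

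The core of the hypoxia response element, ACGTG, to which the HIF proteins bind, is known from promoters of many glycolytic genes, and the windows of 3 genes that rose are shown beside that of Pgk1, which did not. The sequences are RefSeq promoters of GRCm38.p6, from 250 bases before to 50 after each start, and the capitals mark ACGTG, or CACGT where it lies on the opposite strand.
Slc2a1, chr4:119108699-119108723, plus strand: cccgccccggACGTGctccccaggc
Aldoa, chr7:126799366-126799390, minus strand: tggctcgagtCACGTcctagcgggg
Gapdh, chr6:125165724-125165748, minus strand: tcgcggctttacgggtgCACGTagc
Pgk1, chrX:106186940-106186964, plus strand: gtcgtgcaggACGTGacaaatggaa
ACGTG was found on either strand in 6 of the 9 genes with a promoter in the table (Slc2a1, Hk1, Aldoa, Gapdh, Pgk1 and Ldha), beside 28.6% of 8888 genes tested that had one. Several genes have more than 1 promoter there, and by promoter the match was found in 7 of 13, beside 24.8% of 11248. Hk1 was included in both counts but was not tested, unlike the genes beside them. Slc2a1, Aldoa and Gapdh, which rose, held it, as did Pgk1 and Ldha, which did not rise. Ldha held it at more positions than any other of these genes. The match of Gapdh lay 42 bases after the start, whereas those shown for Slc2a1, Aldoa and Pgk1 lay before it. Gpi1, which rose, and Ldhb, which fell, held none in this window. Hif1a itself was at 92.7, 89.5 and 77.8 FPKM in Pabpn1-null oocytes and at 44.4, 79.2 and 35.8 FPKM in WT oocytes, and WT replicate 2 lay within the Pabpn1-null range. Hif1a was called higher (log2 change 0.77, limma adjusted p = 0.0285), but not without WT replicate 1 (adjusted p = 0.0914), WT replicate 3 (0.0751), Pabpn1-null replicate 1 (0.0714) or Pabpn1-null replicate 2 (0.0828), nor without the filter on low values (0.184), nor with the factors of the study table (log2 change 0.22, adjusted p = 0.577).

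The counts in the further lists of glucose metabolism are read beside the shares over all transcripts tested, 27.9% higher and 20.2% lower on the deposited scale and 9.4% and 35.5% with the factors, and nothing is called particular to a list. Among 11 regulators of glycolysis, 10 were tested, 5 rose and 1 fell on the deposited scale, against 1 that rose and 2 that fell with the factors. The count of 5 became 2 without WT replicate 1, Pabpn1-null replicate 1 or Pabpn1-null replicate 2, and 3 without WT replicate 3. Txnip, which encodes a protein that restrains glucose uptake, was at 770.0, 725 and 683 FPKM in Pabpn1-null oocytes and at 220, 251 and 191 FPKM in WT oocytes. It was 3.29-fold higher in Pabpn1-null oocytes (log2 change 1.72, limma adjusted p = 3.12e-05). Prkaa2, a catalytic subunit of the AMP-activated kinase, averaged 15.8 FPKM in Pabpn1-null oocytes and 7.45 FPKM in WT oocytes (adjusted p = 0.00241), and was not called with the factors (0.121). Gckr fell to 25.1 FPKM in Pabpn1-null oocytes, against 60.2 FPKM in WT oocytes (adjusted p = 0.000476).

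The next genes handle pyruvate, the end product of glycolysis. Of 21 genes of pyruvate and lactate transport and pyruvate dehydrogenase, 19 were tested, 4 rose and 4 fell on the deposited scale, against 2 and 11 with the factors (background 27.9% and 20.2%, and 9.4% and 35.5%). On the deposited scale 2 fell when any 1 of the Pabpn1-null samples was left out. Slc16a1, a monocarboxylate transporter of the plasma membrane, averaged 15.2 FPKM in Pabpn1-null oocytes and 5.54 FPKM in WT oocytes (log2 change 1.33, limma adjusted p = 0.000977). The mitochondrial pyruvate carrier genes both fell: Mpc1 averaged 78.7 ± 15.7 FPKM in Pabpn1-null oocytes and 199 ± 11.4 FPKM in WT oocytes (log2 change -1.35, adjusted p = 0.000192), and Mpc2 averaged 47.0 and 76.6 FPKM (adjusted p = 0.00195). Pdk1, a kinase that inhibits pyruvate dehydrogenase, was 3.44-fold higher in Pabpn1-null oocytes (9.50 and 2.76 FPKM, adjusted p = 0.000238).

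Of 12 pentose phosphate genes, 10 were tested, 4 rose and 1 fell on the deposited scale, against 2 and 2 with the factors (background 27.9% and 20.2%, and 9.4% and 35.5%). Rpe, the ribulose phosphate epimerase, averaged 67.8 FPKM in Pabpn1-null oocytes and 28.9 FPKM in WT oocytes (2.34-fold, limma adjusted p = 0.000183), and Tktl2, a transketolase-like gene, averaged 3.57 and 0.564 FPKM (log2 change 1.56, adjusted p = 0.000242). Rpia, the ribose phosphate isomerase, fell to 1.04 FPKM in Pabpn1-null oocytes, against 3.25 FPKM in WT oocytes (adjusted p = 0.00467). Pgd, the phosphogluconate dehydrogenase, was higher at 15.1 and 9.39 FPKM (adjusted p = 0.0131), but not called without Pabpn1-null replicate 2 (0.0506) or with the factors (0.705).

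Of 16 gluconeogenesis and glycogen genes, 11 were tested, 2 rose and 3 fell on the deposited scale, against 0 and 4 with the factors (0 and 5 at an unadjusted p under 0.05 in limma), beside 27.9% and 20.2%, and 9.4% and 35.5%, of all transcripts. On the deposited scale 1 rose and 1 fell when WT replicate 1, WT replicate 3, Pabpn1-null replicate 1 or Pabpn1-null replicate 2 was left out. The count that fell was also 1 without Pabpn1-null replicate 3. Fbp2, a fructose bisphosphatase, fell to 13.9 FPKM in Pabpn1-null oocytes, against 36.0 FPKM in WT oocytes (log2 change -1.32, limma adjusted p = 0.000271). Gys1, a glycogen synthase, was higher at 22.2 and 10.4 FPKM (log2 change 1.04, adjusted p = 0.00278), but not called with the factors (adjusted p = 0.115).

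Of 25 citric acid cycle and shuttle genes, 24 were tested, 6 rose and 7 fell on the deposited scale, against 4 and 12 with the factors, beside 27.9% and 20.2%, and 9.4% and 35.5%, of all transcripts. Gpd2 of the glycerol phosphate shuttle was 3.89-fold higher in Pabpn1-null oocytes (6.75 FPKM, against 1.74 FPKM in WT oocytes, limma adjusted p = 0.000347), and Slc25a11, the oxoglutarate carrier, 2.51-fold higher (25.7 and 10.3 FPKM, adjusted p = 0.000399). Suclg1, a subunit of succinyl-CoA ligase, fell to 39.3% of the WT mean (17.1 and 43.7 FPKM, adjusted p = 0.000317).

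**Figure D5:**
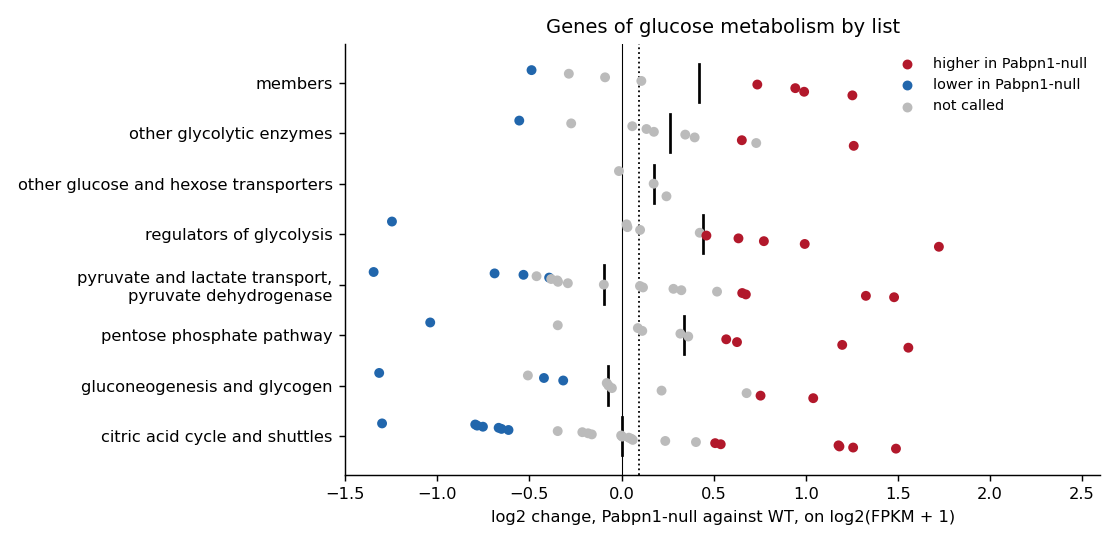
Log2 change, Pabpn1-null against WT, on log2(FPKM + 1) of the deposited scale for each gene tested in the lists of glucose metabolism, in red where called higher in Pabpn1-null oocytes, in blue where called lower and in grey where not called, with a bar at the median of each list and a dotted line at the median of all transcripts (0.09). The list medians ran from -0.10 for pyruvate and lactate transport and pyruvate dehydrogenase to 0.44 for the regulators, and the 10 genes described here had a median of 0.42.

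Granulosa and cumulus cells use glycolysis heavily, so their markers were read beside these results. The summed level of 19 granulosa and cumulus markers was 73.3 to 80.2 FPKM in Pabpn1-null samples and 63.9 to 80.9 FPKM in WT samples, of which Esr2 alone gave a mean of 35.9 and 35.6 FPKM. The sums rest largely on Esr2, so they do not show that the other markers were level. Of these 19 markers, 9 (Foxl2 and Amh among them) were below 1 FPKM in all samples. Of the 10 tested, 2 were called higher and 1 lower, beside 27.9% and 20.2% of all transcripts tested. The median log2 change of these 10 was 0.37, beside 0.09 over all transcripts tested. Cyp19a1, the aromatase gene, was at 3.41, 4.28 and 6.10 FPKM in Pabpn1-null oocytes and at 9.25, 13.2 and 20.3 FPKM in WT oocytes, and fell without overlap (limma adjusted p = 0.00284). Inha, an inhibin subunit gene that was called higher (limma adjusted p = 0.0396) with overlapping groups, was at 13.1, 18.8 and 5.81 FPKM in Pabpn1-null oocytes and at 7.24, 3.11 and 5.04 FPKM in WT oocytes. Pabpn1-null replicate 2 was the highest Pabpn1-null sample for 11 of the 19 markers, many of them near 0, and for 4 of the 10 tested. It was also the highest for 5 of the 8 genes tested here, beside 37.4% of all transcripts tested. The part of granulosa cell RNA in these values was not tested, and in pooled oocytes fewer cells of a type and less RNA per cell cannot be told apart. Without Pabpn1-null replicate 2, Slc2a1, Gpi1, Aldoa and Gapdh were still called higher (log2 changes 0.94, 1.15, 0.70 and 0.99) and Ldhb lower (-0.49). The 15 oocyte markers summed to 23743 to 25831 FPKM in Pabpn1-null samples and to 20000 to 23405 FPKM in WT samples. Markers of blood and endothelial cells summed to at most 11.3 FPKM in any sample, and those of theca and stroma to at most 2.35 FPKM.

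The transcripts whose pattern over the 6 samples was most like that of Slc2a1, among 4163 rows with a mean of at least 20 FPKM, were Noc4l, Trmt12 and Asna1 (Pearson r of at least 0.998 on the log2 scale). For Gapdh they were Uqcrc1, Kti12 and 9130023H24Rik (r of at least 0.995), and for Ldhb they were Commd10, 1500011H22Rik and Fahd2a (r of at least 0.991). In these rows the correlation was above 0.95 with 261 transcripts for Slc2a1, 137 for Gapdh and 153 for Ldhb. The 6 points share the split by genotype and the scale of each sample, so the correlations are a description only.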

How the data were processed

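The authors cut the reads to 50 bp and aligned them with TopHat2 2.1.1 to mm9 together with the spike-in. From reads with a unique position, Cufflinks 2.2.1 gave the deposited FPKM values, on gene models from UCSC, to which 1 had been added. Here 1 was subtracted from each value of the 23235 symbols. Strand is not stated to have been used, so overlapping genes are uncertain. Because only reads with a unique position were kept, the levels of Gapdh, Ldha, Aldoa and Pgk1, which have pseudogenes, are uncertain as well. Rows above 1 FPKM in at least 1 sample (12523) went into a two-sided limma fit (version 3.58.1, R 4.3.3, eBayes with a trend) of log2(FPKM + 1) on genotype. The p-values were adjusted by Benjamini-Hochberg across all of them, and 0.05 was the threshold. A fold change on this scale understates changes of low transcripts. Shares were compared by exact two-sided permutation in Python 3.11.15 with scipy 1.17.1, with a smallest p of 0.1 for 3 against 3.

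Steps between low FPKM values returned whole fragments for 6 of the 10 genes (within 0.00472 of a whole number) and the relative depth of the samples, 1.31 to 1.45 for Pabpn1-null and 1.00 to 1.65 for WT, with WT replicate 1 set to 1. Total FPKM was 597103 to 638185 in Pabpn1-null and 676077 to 739244 in WT samples. The study reports total reads and mapping efficiency for each library, which were not used in the fits. Ordered by these total reads, the samples stood as they did by relative depth. The deposited values therefore behaved as FPKM scaled to the reads of a library, with no sign of a further spike-in factor. It does not give the number of fragments behind the FPKM values. Factors per sample were estimated by regression on 2003 rows of the study table. The limma step was tested on simulated data. The genes, lists, tests and alternatives were chosen with earlier results of these data known. The genes named are all 10, up to 4 called genes with the largest change in each other list, the enzymes of uncovered steps, and the rows most like Slc2a1, Gapdh and Ldhb. Pfkl, Pfkm, Ldhc, Inha, Cyp19a1 and Esr2 were named after their values were seen. Mpc1, Mpc2 and Pkm are listed as Brp44l, Brp44 and Pkm2. Results for 2 genes of the lists are not reported here. Alternatives were 4 scalings, a mean of 5 FPKM or more, no filter, a pseudocount of 0.1, eBayes without trend or robust, a replicate block, and leaving out each sample.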

Additional observations from a re-analysis of the deposited data

How the results depend on the processing

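With the factors of the study table, 1177 transcripts were higher and 4445 lower, and 0 of the 10 genes were higher and 2 lower. Under median-of-ratios scaling 2 of the 10 genes were lower (Pgk1 and Ldhb), and 0 were lower without the filter once rows with no spread were left out, an alternative chosen after the data were seen (2 at an unadjusted p under 0.05 in limma). Without any filter Gpi1 (adjusted p = 0.0561) and Ldhb (0.289) lost their calls and Pgk1 was called (0.0329). The cause was not tested. Slc2a1, Gpi1, Aldoa and Gapdh stayed higher and Ldhb lower, all called, when each sample was left out in turn. The sign turned only for changes that were not called. With the factors, Eno1 was at -0.34, Ldha at -0.20, Pgam1 at -0.48 and Pkm at -0.16. Quantile normalization gave Ldha -0.045 and Pgam1 -0.11, median-of-ratios scaling gave Pgam1 -0.048, and equal totals gave Pfkp 0.067. Leaving out 1 sample at a time gave -0.042 (WT replicate 2) to 0.35 for Eno1, -0.21 (Pabpn1-null replicate 2) to 0.36 for Ldha, and -0.043 (WT replicate 3) to 0.16 for Pgam1, also below 0 without Pabpn1-null replicate 2. Replicate numbers did not pair the samples (correlations of same-numbered deviations -0.01, -0.02 and 0.01), and with a replicate block 3478 transcripts were higher and 2528 lower, with 4 of the 10 genes higher and 1 lower. Depth limits Slc2a3 and Hk1, which stayed below 1 FPKM, and Ldha, which rested on 12 to 49 fragments.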
